A study of Homo sapiens with 26 samples.

Results

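The loci described here are the 1112 rows of the DNMT3B knockout expression table that name wild-type HCT116 cells as the first group and DNMT3BKOshZB as the second. They were chosen by that label alone and make up 1112 of the 3355 loci of the table, or 33.1%, and every one of them had a lower level than wild type. The other 2243 loci of the table carry the label DNMT3BKO and are without exception higher than wild type, so that label and direction coincide throughout the table. The label DNMT3BKOshZB joins words that the sample titles use for the DNMT3B knockout and for the hairpin against ZBTB24, and it matches none of the 12 RNA libraries. Whether these values came from the knockout library or from cells that also carried the hairpin cannot be told apart, and the group is called the DNMT3BKOshZB rows below. Loci under this label are called lowered loci and those labelled DNMT3BKO raised loci, as names for the direction in the table and not for the outcome of a test.

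The study used HCT116, a human colorectal cancer cell line, and measured RNA by sequencing and the binding of FLAG-tagged ZBTB24 and DNMT3B by ChIP-seq. The RNA groups used here were a genetic knockout of DNMT3B (1 library), an shRNA against ZBTB24 (shZBTB24, 3 libraries), cells expressing FLAG-ZBTB24 (2 libraries), the non-targeting shRNA (shNT, 3 libraries), cells with the FLAG tag alone (2 libraries) and wild-type cells with neither tag nor shRNA (1 library). The shRNA and FLAG lines carried lentiviral constructs and were kept under puromycin selection, and the FLAG lines were single-cell clones; how many knockout clones were used is not stated in the labels. The peak lists pooled 3 FLAG-ZBTB24 and 2 FLAG-DNMT3B ChIP-seq libraries. Expression was given as FPKM, a fragment count scaled to transcript length and library size, with 1 pooled value per group, so no SD, no standard error and no test across libraries could be had for any locus below, and the depth behind each value is unknown.

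DNMT3B is a DNA methyltransferase that sets new methyl groups on cytosines, and it is recruited to the bodies of transcribed genes as well as to repeats. ZBTB24 is a BTB-domain zinc finger protein that binds DNA, and its best-known target is CDCA7, which partners the chromatin remodeller HELLS. Loss of DNMT3B, ZBTB24, CDCA7 or HELLS causes ICF syndrome, an immunodeficiency with hypomethylated pericentromeric repeats and facial anomalies.

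The promoters of CDCA7, AP1S1 and RPL26 are shown because each was a lowered locus with a ZBTB24 peak at its start and with the letters AGGACCT, which belong to the sequence reported for the ZBTB24 zinc fingers. They span 250 bases before to 50 bases after the RefSeq transcript start on GRCh38.p14, and capitals mark AGGACCT as read in the 5′ to 3′ direction of the gene. CDCA7 lies at chr2:173354622-173354921 on the plus strand, AP1S1 at chr7:101154226-101154525 on the plus strand and RPL26 at chr17:8383144-8383443 on the minus strand.
CDCA7: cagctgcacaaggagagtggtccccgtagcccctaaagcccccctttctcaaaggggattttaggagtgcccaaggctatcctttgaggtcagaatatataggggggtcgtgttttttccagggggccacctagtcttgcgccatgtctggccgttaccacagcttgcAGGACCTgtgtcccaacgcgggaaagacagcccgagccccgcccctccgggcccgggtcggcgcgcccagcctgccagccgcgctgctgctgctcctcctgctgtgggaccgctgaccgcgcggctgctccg
AP1S1: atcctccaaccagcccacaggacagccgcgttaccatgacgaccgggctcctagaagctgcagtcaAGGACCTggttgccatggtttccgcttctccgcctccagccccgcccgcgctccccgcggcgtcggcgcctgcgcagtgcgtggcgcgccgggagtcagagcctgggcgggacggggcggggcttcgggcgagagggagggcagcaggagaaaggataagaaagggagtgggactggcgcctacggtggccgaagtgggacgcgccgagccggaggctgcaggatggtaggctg
RPL26: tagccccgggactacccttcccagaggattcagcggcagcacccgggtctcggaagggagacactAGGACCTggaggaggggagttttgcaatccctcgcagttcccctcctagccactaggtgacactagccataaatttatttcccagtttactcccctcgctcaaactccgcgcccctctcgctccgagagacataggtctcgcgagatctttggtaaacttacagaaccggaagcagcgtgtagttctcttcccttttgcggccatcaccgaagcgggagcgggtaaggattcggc

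The lowered loci were mostly protein-coding genes that were well expressed in wild type. Of the 1059 loci with a single gene symbol, 1027 matched the RefSeq gene table, and 90.4% of those were protein-coding and 7.59% were long noncoding RNAs, against 91.3% and 5.88% for the raised loci. The level of the lowered loci had a median of 3.34 FPKM in the DNMT3BKOshZB rows (quartiles 0.767 and 10.98) and of 10.6 FPKM in wild type (quartiles 3.12 and 32.9). The log2 fold change of the DNMT3BKOshZB rows over wild type had a median of -1.48 and ran from -9.73 to -1.001. The list ends at 2-fold, and the loci nearest to that edge were DUSP8, a phosphatase of stress kinases, with 2.01 FPKM in the DNMT3BKOshZB rows and 4.02 FPKM in wild type, and LHX2, a homeobox factor, with 4.52 and 9.05 FPKM in the same order. No locus with a smaller difference was listed, so the values just outside the edge were not analysed here.

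Levels at least 4-fold below wild type were found for 296 lowered loci (26.6%), and levels at least 4-fold above it for 1184 raised loci (52.8%). In bulk RNA, fewer cells with a transcript and less of it per cell cannot be told apart. A q under 0.05 in the authors' deposited table was listed for 4 lowered loci (0.36%) and 7 raised loci (0.312%), and 111 lowered loci had an unadjusted p under 0.05. Wild type had 1 library and the libraries behind the label DNMT3BKOshZB are not known, so no spread between replicates can be read from these p and q values. The share of lowered loci past 4-fold was 31.6% of 76 loci under 1 FPKM in wild type, 40% of 280 loci between 1 and 5 FPKM, 30.7% of 189 loci between 5 and 10 FPKM, 18.6% of 269 loci between 10 and 30 FPKM, 20.6% of 165 loci between 30 and 100 FPKM and 13.5% of 133 loci at 100 FPKM or more. Large folds were thus less frequent among the highly expressed lowered loci, and the wild-type value enters both quantities. At least 10 FPKM in wild type was found for 567 lowered loci, and 12 of those were below 1 FPKM in the DNMT3BKOshZB rows.

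**Figure D1:**
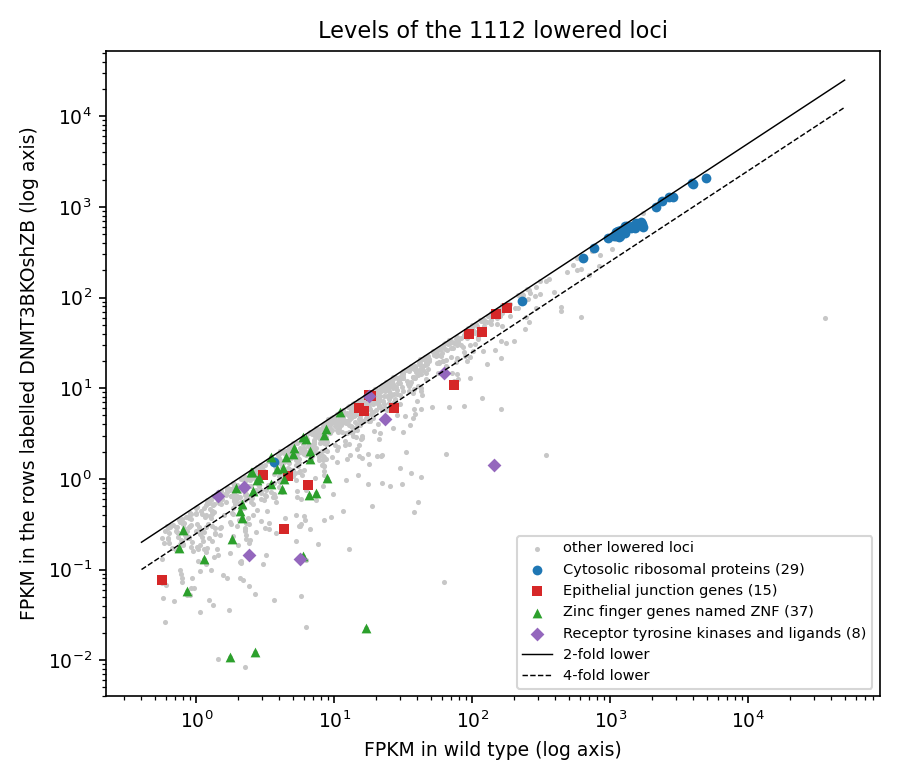
FPKM of each of the 1112 lowered loci in wild type (x axis, log scale) and in the rows labelled DNMT3BKOshZB (y axis, log scale), 1 point per locus and 1 pooled value per group, with 4 gene lists in colour. The 29 ribosomal protein loci of the list, which leaves out RPS4Y1, lie close to the 2-fold line, at high levels apart from RPS10P7, while several ZNF genes and receptor tyrosine kinase genes or ligands lie far under the 4-fold line.

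The 4 lowered loci with a q under 0.05 in the authors' deposited table were SAT1, CYB5B, EREG and the locus shared by PHLDB2 and PLCXD2. SAT1, the acetyltransferase that starts the breakdown of spermidine and spermine, was at 60.7 FPKM in the DNMT3BKOshZB rows and 611 FPKM in wild type (log2 fold change -3.33, q of 0.00636 in the authors' deposited table). CYB5B, the cytochrome b5 of the outer mitochondrial membrane, was at 21.6 FPKM in the DNMT3BKOshZB rows and 163 FPKM in wild type (log2 fold change -2.91, q of 0.0235 in the authors' deposited table). EREG, which encodes the EGF receptor ligand epiregulin, was at 1.84 FPKM in the DNMT3BKOshZB rows and 345 FPKM in wild type (log2 fold change -7.55, q of 0.0289 in the authors' deposited table). The PHLDB2 and PLCXD2 locus was at 12.5 FPKM in the DNMT3BKOshZB rows and 79.0 FPKM in wild type (log2 fold change -2.66, q of 0.0342 in the authors' deposited table), and its reads cannot be assigned to either gene. SAT1 lies at chrX:23801275-23804340, CYB5B at chr16:69458498-69500167 and EREG at chr4:75229475-75254477 on hg19.

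Among loci with a single gene symbol and at least 10 FPKM in wild type, the 15 largest folds belonged to genes below 2 FPKM in the DNMT3BKOshZB rows. The lowest log2 fold change was that of RPS4Y1, a ribosomal protein gene of the Y chromosome, with 0.0732 FPKM in the DNMT3BKOshZB rows and 62.04 FPKM in wild type. DDX3Y, an RNA helicase gene of the Y chromosome, had 0.0232 FPKM in the DNMT3BKOshZB rows and 6.28 FPKM in wild type. KDM5D, a Y-linked histone demethylase gene, had 0.0103 FPKM in the DNMT3BKOshZB rows and 1.43 FPKM in wild type. The Y chromosome had 4 listed loci, 3 lowered and 1 raised, and the lowered ones had a median log2 fold change of -8.08. Copy number of the Y chromosome was not measured, so its part in these values was not tested. ZNF83, a KRAB-type zinc finger gene, had 0.0226 FPKM in the DNMT3BKOshZB rows and 17.0 FPKM in wild type (log2 fold change -9.56). KITLG, the ligand of the receptor KIT, had 1.43 FPKM in the DNMT3BKOshZB rows and 143 FPKM in wild type. PCDH7, a protocadherin of the cell surface, had 0.435 FPKM in the DNMT3BKOshZB rows and 37.8 FPKM in wild type.

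Transcription factors, secreted factors and metabolic enzymes followed. NR2F1, a nuclear receptor of development, had 0.561 FPKM in the DNMT3BKOshZB rows and 40.3 FPKM in wild type. NR2F1-AS1, which is transcribed from the neighbouring locus on the opposite strand, had 4.98 FPKM in the DNMT3BKOshZB rows and 32.4 FPKM in wild type, so both genes of that locus were lower. FOXC1, a forkhead transcription factor, had 1.05 FPKM in the DNMT3BKOshZB rows and 42.6 FPKM in wild type. CYP24A1, which inactivates vitamin D, had 1.87 FPKM in the DNMT3BKOshZB rows and 64.1 FPKM in wild type. The others of these 15 single-symbol loci were FAM110C, SLC38A5 (a glutamine transporter), PDE4B (a cyclic AMP phosphodiesterase), TFPI (an inhibitor of tissue factor), CYP4F11, ABCC2 and RNF43, with log2 fold changes between -6.26 and -4.48. Loci with several symbols were ranked apart, since their reads cannot be assigned to a single gene. The locus of PVT1 with MIR1204 and MIR1206, which had the highest wild-type level of all lowered loci, had 59.0 FPKM in the DNMT3BKOshZB rows and 35822 FPKM in wild type. FPKM values of a locus that holds very short genes depend strongly on the length used for it. The PVT1 locus had 20731 FPKM in shZBTB24 cells and 190 FPKM in shNT cells, the opposite direction. It had 32687 FPKM in FLAG-ZBTB24 cells and 17124 FPKM with the tag alone. Control groups thus differed widely at this locus, and its fold is uncertain. The ADIRF and AGAP11 locus had 5.90 FPKM in the DNMT3BKOshZB rows and 163 FPKM in wild type (log2 fold change -4.79), and the locus of AADAC, AADACP1 and SUCNR1 had 0.906 FPKM in the DNMT3BKOshZB rows and 22.3 FPKM in wild type (log2 fold change -4.62).

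Of 21 genes of the DNA methylation machinery, 2 were lowered loci (DNMT3B and DNMT1, 9.52%) and 1 was a raised locus (DNMT3A). DNMT3B is the gene that the knockout targeted, so its place in this count and in the ICF count below is no separate result. DNMT3B itself was at 6.46 FPKM in the DNMT3BKOshZB rows and 21.1 FPKM in wild type, 3.27-fold lower (log2 fold change -1.71, q of 0.676 in the authors' deposited table). A gene-level FPKM value does not show which exons the remaining reads came from. CDCA7 was at 13.3 FPKM in the DNMT3BKOshZB rows and 36.9 FPKM in wild type (log2 fold change -1.47). DNMT1, which maintains methylation after replication, was at 19.6 FPKM in the DNMT3BKOshZB rows and 57.4 FPKM in wild type (log2 fold change -1.55). DNMT3A, the other methyltransferase that sets new marks, stood among the raised loci with 8.47 FPKM in the DNMT3BKO rows and 3.25 FPKM in wild type. ZBTB24 was listed neither in the knockout table nor in the shZBTB24 table, so its level gives no check of whether the label includes the hairpin. Of the 4 ICF syndrome genes, 2 were lowered loci (CDCA7 and the targeted gene DNMT3B) and 0 were raised loci. None of these genes, CDCA7 included, was listed in the shZBTB24 table, and absence from it need not mean no change. Of 10 reported ZBTB24 targets, 1 was a lowered locus (CDCA7, 10%) and 2 were raised loci (AXIN2 and CNPY4).

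Gene lists are described by how many of their annotated symbols were lowered loci, to be read against 4.35% of the 25541 named loci of the assembled annotation that were lowered and 8.78% that were raised. A gene that is silent in wild type cannot be listed as lowered, and a locus absent from the table may have been unchanged, filtered out or not tested. Of the lowered loci, 305 (27.4%) were on at least 1 of the 54 lists.

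Cytosolic ribosomal protein genes gave many lowered loci, most of them with small folds. Of 90 annotated symbols, 29 (32.2%) were lowered and 2 were raised, and the lowered ones had a median log2 fold change of -1.17, against -1.48 for all lowered loci. None of the 29 was past 4-fold, and the lowest was RPL23 at -1.54. The list was mostly lower in the other tables as well. It had 1 higher and 13 lower loci in the shZBTB24 table, and 1 higher and 33 lower loci in the FLAG-ZBTB24 table. For its members that were also lowered loci, the lowest q in the authors' deposited tables was 0.157 (RPL3) after the knockdown. With FLAG-ZBTB24 the lowest was 0.447 (RPS29). The list was built on symbol patterns and leaves out RPS4Y1, given above with a log2 fold change of -9.73, and RPL22L1, a paralogue of RPL22 with -1.30. RPL26, a protein of the large subunit, was the highest of them with 2099 FPKM in the DNMT3BKOshZB rows and 4962 FPKM in wild type. RPS2, of the small subunit, was at 1805 FPKM in the DNMT3BKOshZB rows and 3964 FPKM in wild type. The pseudogene RPS10P7 was among the lowered ones. The raised members were RPL3L, a paralogue of RPL3 known from muscle, and the pseudogene RPLP0P2. Reads of ribosomal protein genes can be shared with their many processed pseudogenes, so their values are uncertain. EEF1A1, the elongation factor that delivers tRNA to ribosomes, was at 1001 FPKM in the DNMT3BKOshZB rows and 2085 FPKM in wild type.

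Other lists of growth and metabolism genes also held lowered loci, most of them under 4-fold. Oxidative phosphorylation genes gave 8 lowered loci of 86 (9.30%) and 1 raised locus, with a median log2 fold change of -1.19 among the lowered and none past 4-fold. NDUFS5, a subunit of complex I, was at 159 FPKM in the DNMT3BKOshZB rows and 357 FPKM in wild type. MYC targets and ribosome biogenesis genes gave 5 lowered loci of 36 (13.9%), none past 4-fold, and 0 raised loci. MYC itself, the transcription factor that drives growth genes, was at 96.6 FPKM in the DNMT3BKOshZB rows and 254 FPKM in wild type. NPM1, a nucleolar chaperone, was at 612 FPKM in the DNMT3BKOshZB rows and 1263 FPKM in wild type. DNA replication genes gave 5 lowered loci of 52 (9.62%), 1 of them past 4-fold (CCNE2), and 0 raised loci. MCM4, part of the helicase that opens DNA at forks, was at 22.4 FPKM in the DNMT3BKOshZB rows and 59.6 FPKM in wild type. In the shZBTB24 table the oxidative phosphorylation list had 12 higher and 1 lower loci. The DNA replication list had 20 higher and 0 lower loci there, and the MYC list 3 and 2. In the FLAG-ZBTB24 table these 3 lists had 1 higher and 17 lower, 0 and 1, and 0 and 2 loci. The cholesterol synthesis list (28 genes) and the aminoacyl-tRNA synthetase list (20 genes) held 0 lowered loci, with 1 and 0 raised loci.

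Epithelial junction genes were frequent among the lowered loci. Of 39 annotated symbols, 15 (38.5%) were lowered, 6 of them past 4-fold, and 2 were raised (CLDN1 and CLDN3). EPCAM, an adhesion protein of epithelial cells, was at 76.6 FPKM in the DNMT3BKOshZB rows and 179 FPKM in wild type. RAB25, a small GTPase of epithelial membrane traffic, was at 11.0 FPKM in the DNMT3BKOshZB rows and 74.0 FPKM in wild type. CDH1, which encodes E-cadherin of the adherens junction, was at 6.10 FPKM in the DNMT3BKOshZB rows and 27.3 FPKM in wild type. Regulators of the epithelial state were among these loci too. GRHL2, a transcription factor of epithelial genes, was at 0.847 FPKM in the DNMT3BKOshZB rows and 6.48 FPKM in wild type, and ESRP1, an epithelial splicing regulator, was at 39.4 FPKM in the DNMT3BKOshZB rows and 94.7 FPKM in wild type. DSC3, a desmosomal cadherin, had the lowest log2 fold change of the list, -3.94. Of 21 mesenchymal genes, 1 was lowered (ACTA2) and 7 were raised, among them VIM, the intermediate filament vimentin, with 629 FPKM in the DNMT3BKO rows and 3.80 FPKM in wild type.

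Marker lists of cell types were described in the same way. Of 19 colon epithelium markers, 5 were lowered loci and 1 was a raised locus, and none of the 5 was past 4-fold. KRT8, a keratin of simple epithelia, was at 297 FPKM in the DNMT3BKOshZB rows and 839 FPKM in wild type. KRT18, its partner keratin, was at 329 FPKM in the DNMT3BKOshZB rows and 739 FPKM in wild type. CDX2, an intestinal homeobox factor, was at 3.55 FPKM in the DNMT3BKOshZB rows and 8.39 FPKM in wild type. KRT8 and KRT18 thus remained among the highly expressed genes in both groups. Of all 56 keratin genes, 4 (7.14%) were lowered, 1 of them past 4-fold, and 5 were raised. The fibroblast (10 genes), endothelium (9 genes), leukocyte (14 genes) and neural (13 genes) marker lists held 0 lowered loci, and 1, 0, 4 and 3 raised loci. Markers silent in wild type cannot be listed as lowered, so these counts give no check of the tissue.

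Growth factor and receptor genes had larger folds than the lists above. Of 39 receptor tyrosine kinase genes and ligands, 8 (20.5%) were lowered and 8 were raised, and the lowered ones had a median log2 fold change of -2.22, with 5 past 4-fold. MET, the receptor of hepatocyte growth factor, was at 14.6 FPKM in the DNMT3BKOshZB rows and 62.8 FPKM in wild type. IRS1, an adaptor of insulin and IGF receptors, was at 4.61 FPKM in the DNMT3BKOshZB rows and 23.2 FPKM in wild type. FGFR2, a fibroblast growth factor receptor, was at 0.131 FPKM in the DNMT3BKOshZB rows and 5.65 FPKM in wild type. The EGF family held lowered ligands as well as a lowered receptor. Of 14 such genes, 4 were lowered (EREG, TGFA, AREG and the receptor ERBB3), with a median log2 fold change of -3.58, and 2 neuregulin genes were raised. AREG, which encodes the ligand amphiregulin, was at 0.192 FPKM in the DNMT3BKOshZB rows and 7.59 FPKM in wild type. TGFA, which encodes transforming growth factor alpha, was at 5.14 FPKM in the DNMT3BKOshZB rows and 18.6 FPKM in wild type.

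Among Wnt targets and feedback genes, 6 of 29 (20.7%) were lowered and 8 were raised, with a median log2 fold change of -2.36 among the lowered. RNF43, a ubiquitin ligase that removes Wnt receptors, was at 0.501 FPKM in the DNMT3BKOshZB rows and 18.8 FPKM in wild type. CD44, a hyaluronan receptor, was at 44.8 FPKM in the DNMT3BKOshZB rows and 239.8 FPKM in wild type. TCF7L2, the main DNA-binding partner of beta-catenin in intestine, was at 59.1 FPKM in the DNMT3BKOshZB rows and 151 FPKM in wild type. For p53 targets, 8 of 30 (26.7%) were lowered and 0 were raised, with none past 4-fold. CDKN1A, the cell cycle inhibitor p21, was at 51.5 FPKM in the DNMT3BKOshZB rows and 150.1 FPKM in wild type. CCNG1, a cyclin gene induced by p53, was at 20.2 FPKM in the DNMT3BKOshZB rows and 61.6 FPKM in wild type. NRF2 and glutathione genes gave 6 lowered loci of 24 (25%) and 2 raised loci. NQO1, a quinone reductase and classical NRF2 target, was at 40.6 FPKM in the DNMT3BKOshZB rows and 120.0 FPKM in wild type. ABCC2, an export pump for conjugated compounds, was at 1.33 FPKM in the DNMT3BKOshZB rows and 29.7 FPKM in wild type.

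Adhesion gene lists held both lowered and raised loci. Of 97 protocadherin and cadherin genes, 5 were lowered (FAT1, CDH3, PCDH7, CDH1 and PCDH1), all past 4-fold, and 8 were raised. The lowered share, 5.15%, was near the 4.35% of all named loci. CDH3, which encodes P-cadherin, was at 5.89 FPKM in the DNMT3BKOshZB rows and 42.3 FPKM in wild type. Laminin and integrin genes gave 6 lowered loci of 42 (14.3%) and 8 raised loci. LAMB1, a laminin chain of basement membranes, was at 2.14 FPKM in the DNMT3BKOshZB rows and 14.7 FPKM in wild type. Axon guidance genes gave 5 lowered loci of 70 (7.14%) and 16 raised loci. Collagen genes gave 2 lowered loci of 44 (4.55%, near the share of all named loci) and 18 raised loci. Solute carriers gave 17 lowered loci of 365 (4.66%) and 32 raised loci, both near the share of all named loci. Chromatin regulators gave 6 lowered loci of 108 (5.56%, near the share of all named loci) and 2 raised loci. The non-Y-linked lowered member with the lowest log2 fold change was SMARCA1, an ISWI remodeller, with 1.83 FPKM in the DNMT3BKOshZB rows and 22.3 FPKM in wild type. F-box, KLHL and TRIM genes gave 5 lowered loci of 167 (2.99%) and 15 raised loci. The interferon-stimulated list (51 genes) and the MHC class I list (19 genes) held 0 lowered loci, against 46 and 16 raised loci.

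**Figure D2:**
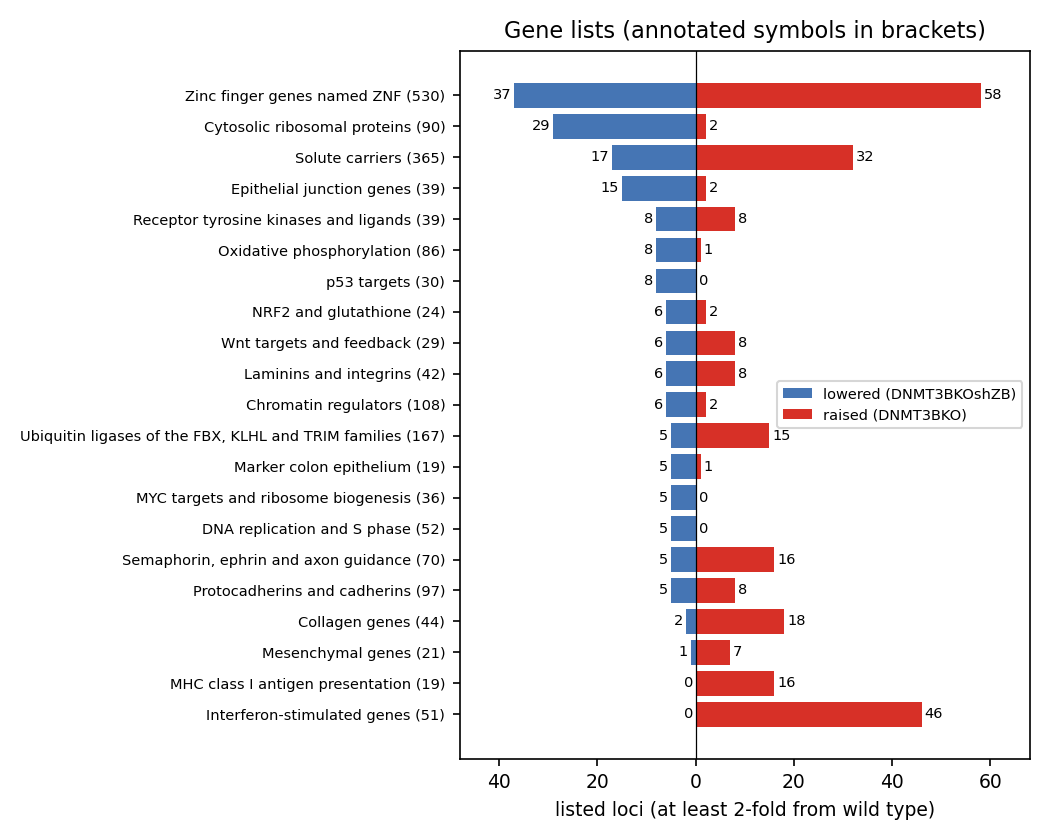
Number of lowered loci (left, rows labelled DNMT3BKOshZB) and raised loci (right, rows labelled DNMT3BKO) for 21 gene lists, with the number of annotated symbols of each list in brackets. Ribosomal protein and epithelial junction genes were mostly on the lowered side, with 29 and 15 lowered loci against 2 and 2 raised loci, while interferon-stimulated genes had 0 lowered and 46 raised loci.

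Zinc finger genes with a ZNF symbol formed the longest list of protein-coding genes. Of 530 such genes, 37 (6.98%) were lowered and 58 were raised. The lowered ones had a low level, with a median of 0.982 FPKM in the DNMT3BKOshZB rows and 3.84 FPKM in wild type. On chromosome 19, which holds most KRAB zinc finger clusters, 24 were lowered with a median log2 fold change of -2.01, 13 of them past 4-fold. The 13 on other chromosomes had a median log2 fold change of -1.45, and 35 of the raised ones were on chromosome 19 as well. Several of the chromosome 19 genes were close to 0 in the DNMT3BKOshZB rows. ZNF738 was at 0.141 FPKM in the DNMT3BKOshZB rows and 5.97 FPKM in wild type. ZNF100 was at 0.0123 FPKM in the DNMT3BKOshZB rows and 2.65 FPKM in wild type. ZNF91, a repressor of SVA retrotransposons, was at 0.0108 FPKM in the DNMT3BKOshZB rows and 1.74 FPKM in wild type. Clustered zinc finger genes have similar sequences, so the split of their reads is uncertain.

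Noncoding loci were present among the lowered loci. Of 978 antisense RNA genes, 39 (3.99%, near the 4.35% of all named loci) were lowered and 58 were raised. Of 874 genes with a LINC symbol, 22 (2.52%) were lowered and 38 were raised. The libraries were stranded per the labels' protocols, but no source used here gives the strand setting of the quantification, so reads of an antisense gene and its partner may be mixed. GAS6-AS1 was at 25.2 FPKM in the DNMT3BKOshZB rows and 86.8 FPKM in wild type. GAS6, the protein-coding partner and a ligand of the receptor AXL, was at 6.02 FPKM in the DNMT3BKOshZB rows and 23.3 FPKM in wild type, so the pair was lower together. Of 2325 snoRNA and microRNA genes, 26 (1.12%) stood in a lowered locus, in most cases beside a host gene in the same locus.

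Lowered loci were unevenly placed along the genome. On chromosome 13, 45 of 68 listed loci were lowered (66.2%, Wilson 95% interval 54.3 to 76.3%), against 33.1% of the whole table. The share was 44.4% on chromosome 8 (55 of 124 loci) and 47.8% on the X chromosome (43 of 90), and it was 18.99% on chromosome 14 (15 of 79) and 21.5% on chromosome 11 (46 of 214). This share depends on the raised loci as well as on the lowered ones: of annotated named loci on the X chromosome 4.01% were lowered and 4.38% were raised, so the lowered share there was near the 4.35% of the genome. These intervals cover counting error only and treat loci as independent, which neighbouring loci need not be. Of annotated named loci on chromosome 13, 8.02% were lowered and 4.10% were raised, against 4.35% and 8.78% over the genome. The chromosome 13 loci had a median log2 fold change of -1.50, close to that of all lowered loci. Between 45 and 62 Mb, a stretch chosen after its values were seen, 19 of 22 listed loci were lowered, with log2 fold changes from -3.04 to -1.004. They included SUGT1, a cochaperone of kinetochore assembly, with 15.3 FPKM in the DNMT3BKOshZB rows and 39.4 FPKM in wild type, and KPNA3, an importin, with 6.81 FPKM in the DNMT3BKOshZB rows and 20.5 FPKM in wild type. Copy number was not measured, so its part in this was not tested.

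**Figure D3:**
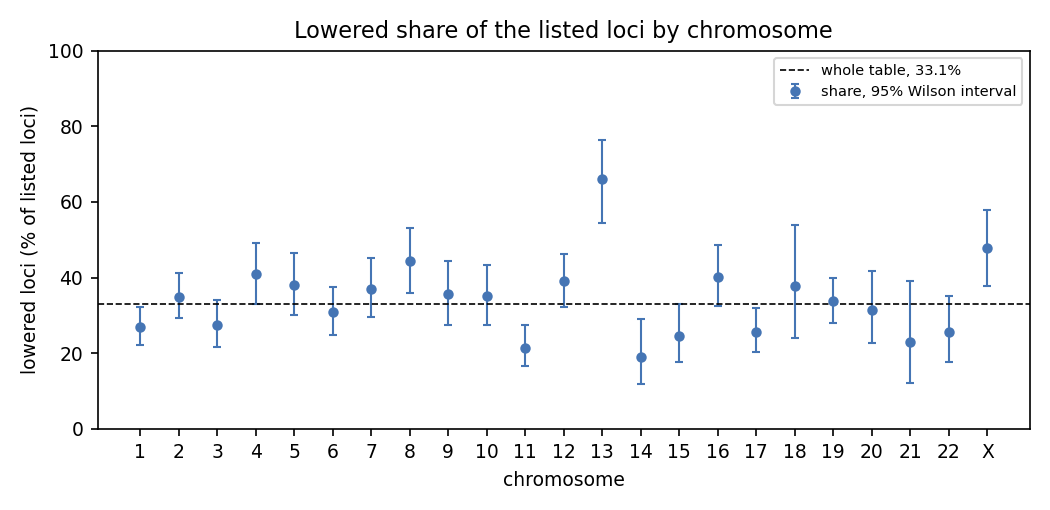
Share of listed loci that were lowered (y axis, percent) on each chromosome (x axis), with Wilson 95% intervals that cover counting error only and a dashed line at 33.1%, the share of the whole table. Among the chromosomes plotted, chromosome 13 stands highest at 66.2% and chromosome 14 lowest at 18.99%.

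Lowered loci also lay next to each other. After a lowered locus the next listed locus on the chromosome was lowered in 43.3% of 1100 cases (Wilson 95% interval 40.4 to 46.2%), and after a raised locus in 28.1% of 2230 cases (26.2 to 29.97%). Such runs were described after their values were seen. At chr19:53030909-53606718 on hg19, 8 consecutive listed loci were lowered (ZNF808, ZNF83, ZNF600, ZNF28, ZNF468, ZNF888, the ZNF816 locus and ZNF160), with a median log2 fold change of -1.91. At chr19:19625028-28297688, which spans the centromere, 10 consecutive listed loci were lowered, 6 of them ZNF genes. At chr16:68678151-69760571, 6 consecutive listed loci were lowered with a median log2 fold change of -2.50: CDH3, CDH1, HAS3, CYB5B, NFAT5 and NQO1. HAS3, a hyaluronan synthase, had the lowest value of that run at -4.62. At chr7:113726365-121036422 the run was FOXP2, CAV2, CAV1, MET, WNT16 and FAM3C, with a median of -2.02, and CAV1, the main protein of caveolae, was at 26.0 FPKM in the DNMT3BKOshZB rows and 120.2 FPKM in wild type.

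Binding of ZBTB24 was measured apart from the expression table. A ZBTB24 peak with its midpoint within 1000 bp of a transcript start was found at 77 of 1112 lowered loci (6.92%, Wilson 95% interval 5.58 to 8.57%). The same share was 5.08% of raised loci (4.25 to 6.07%) and 3.97% of all named loci (3.73 to 4.21%). The intervals of the lowered and raised loci overlap, and the order of the shares differed between ranges of the wild-type level without a steady trend. Between 10 and 30 FPKM in wild type the share was 7.43% of lowered loci (4.86 to 11.2%) and 11.5% of raised loci (7.12 to 18.2%), and between 30 and 100 FPKM it was 7.88% of lowered loci and 12.5% of raised loci. Between 1 and 5 FPKM it was 6.07% of lowered loci and 5.81% of raised loci, and these differences were not tested. Among lowered loci the share was 6.42% of those past 4-fold and 7.11% of the others. CDCA7 had the highest peak score of these loci, 55.4 on the authors' scale, with the peak midpoint 158 bp from a transcript start, at chr2:174219128-174219679 on hg19. C22orf34 had a score of 35.7, with 2.71 FPKM in the DNMT3BKOshZB rows and 7.11 FPKM in wild type. SULT1C2, a sulfotransferase gene, had a score of 25.004, with 0.0807 FPKM in the DNMT3BKOshZB rows and 0.931 FPKM in wild type. AP1S1, a subunit of the clathrin adaptor AP-1, had a score of 22.2, with 31.8 FPKM in the DNMT3BKOshZB rows and 68.6 FPKM in wild type. SMARCAL1, an annealing helicase of stalled replication forks, had a score of 19.6, with 3.31 FPKM in the DNMT3BKOshZB rows and 6.70 FPKM in wild type. The next by score were SESN1, MSX2, ZBED3-AS1, BRI3BP and CDKL3, with scores from 18.8 to 16.7. RNF43, lower by 37.6-fold, also had a peak, with a score of 12.03 and its midpoint 4 bp from a start.

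The letters AGGACCT, searched on both strands of the RefSeq promoters, were found in 5 of 57 lowered loci with a ZBTB24 promoter peak (8.77%, Wilson 95% interval 3.81 to 18.9%). They were found in 26 of 675 lowered loci without such a peak (3.85%, 2.64 to 5.58%), in 16 of 77 raised loci with such a peak (20.8%, 13.2 to 31.1%) and in the promoters of 1339 of all 27305 genes (4.90%). Counted per promoter, 1416 of 35116 (4.03%) held them. RefSeq promoters were matched for 57 of 74 lowered single-symbol loci with a peak. The promoters with the letters were those of CDCA7, AP1S1 and RPL26, printed above, and of SMARCAL1 and SLC16A14. The match began at -82 from the transcript start in CDCA7, at -184 in AP1S1, at -185 in RPL26, at -227 in SMARCAL1 and at -122 in SLC16A14. A match is a description of the letters in the window and not a measured binding site.

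DNMT3B peaks lay in the bodies of more lowered than raised loci. At least 1 DNMT3B peak midpoint fell inside a transcript of 370 of 1112 lowered loci (33.3%, Wilson 95% interval 30.6 to 36.1%), against 10.2% of raised loci (8.98 to 11.5%), 22.3% of all named loci and 33.7% of the loci in the shZBTB24 table. Wild-type level moved with this difference, since 6.83% of lowered loci and 56.8% of raised loci were under 1 FPKM in wild type. Within ranges of the wild-type level the shares were 11.8% of lowered and 12.6% of raised loci between 1 and 5 FPKM, and 29.1% and 31.7% between 5 and 10 FPKM. They were 50.9% of lowered loci (44.98 to 56.8%) and 43.1% of raised loci (34.9 to 51.7%) between 10 and 30 FPKM. They were 56.4% of lowered loci (48.7 to 63.7%) and 37.5% of raised loci (24.2 to 52.97%) between 30 and 100 FPKM. At 100 FPKM or more they were 36.8% of lowered loci (29.1 to 45.3%) and 18.75% of 16 raised loci (6.59 to 43.0%). The intervals overlapped in each of the 6 ranges, and the differences at a matched wild-type level were not tested. By length, for loci with at least 5 FPKM in wild type, the shares were 18.9% of lowered and 11.4% of raised loci under 20 kb, 57.2% and 59.5% between 20 and 100 kb, and 55.6% and 39.6% at 100 kb or more.

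**Figure D4:**
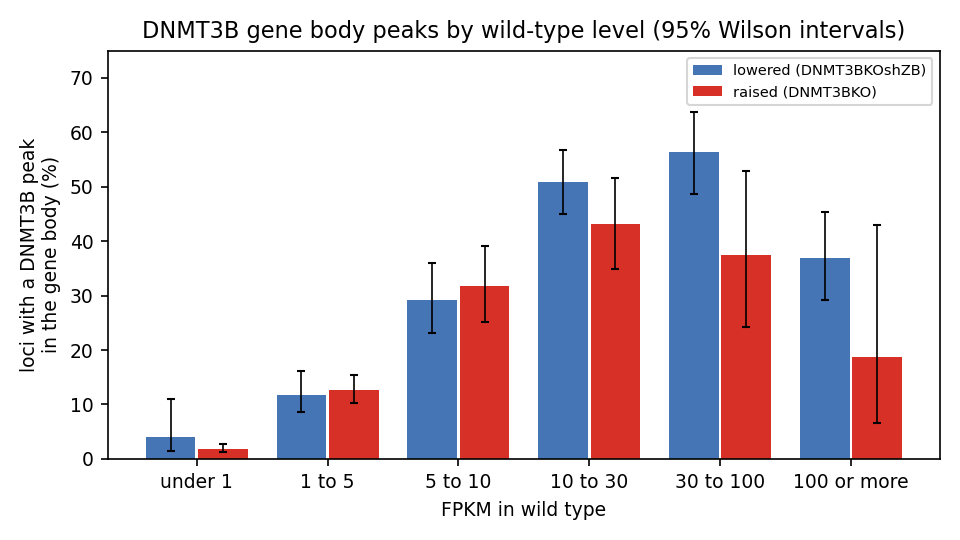
Share of loci with at least 1 DNMT3B peak in the gene body (y axis, percent) by FPKM in wild type (x axis), for lowered loci (blue) and raised loci (red), with Wilson 95% intervals for counting error only. In both sets the share grew from under 5% below 1 FPKM to 50.9% and 43.1% between 10 and 30 FPKM. It was lower at 100 FPKM or more, with 36.8% of lowered and 18.75% of raised loci. The intervals of the sets overlap in each range.

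Among the lowered loci themselves, those with large folds had fewer DNMT3B peaks. The share with a peak in the body was 20.6% of loci past 4-fold (Wilson 95% interval 16.4 to 25.6%) and 37.9% of the others (34.6 to 41.2%). With at least 5 FPKM in wild type it was 29.4% of 160 loci past 4-fold (22.9 to 36.8%) and 48.2% of 596 others (44.2 to 52.2%). The loci with the most peaks were DST, a cytoskeletal linker, and ZZEF1, with 14 peaks each, and ANAPC1, a subunit of the anaphase-promoting complex, with 13. DST was at 6.67 FPKM in the DNMT3BKOshZB rows and 23.1 FPKM in wild type. MYOF, a membrane repair protein, had 10 peaks, with 18.7 FPKM in the DNMT3BKOshZB rows and 128 FPKM in wild type. AGO2, the slicing Argonaute protein, had 10 peaks, with 6.82 FPKM in the DNMT3BKOshZB rows and 15.5 FPKM in wild type. Both a ZBTB24 promoter peak and a DNMT3B body peak were found at 30 lowered loci, CDCA7, SMARCAL1, SESN1 and RNF43 among them.

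The hairpin against ZBTB24 gave a comparison with libraries of its own, shZBTB24 over shNT. Nothing in the labels says that the 3 libraries of each group came from separate cultures, so the authors' q values there measure only the spread between libraries. Of the 1112 lowered loci, 208 (18.7%, Wilson 95% interval 16.5 to 21.1%) were listed in the shZBTB24 table, and these were 10.6% of the 1965 loci of that table. Of the 208, 112 were higher and 96 were lower in shZBTB24 cells than in shNT cells, so that 53.8% were higher (47.1 to 60.5%), against 55.0% of the whole shZBTB24 table. By the authors' deposited table, of the loci with a q under 0.05, 32 were higher and 26 were lower, against 12.2% and 9.82% of the loci of that table. Lowered loci thus went in both directions after the knockdown, in proportions near those of the whole list.

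Some genes were lower in both comparisons, by the values of the authors' deposited tables. VGF, a secreted neuropeptide precursor, was at 1.78 FPKM in the DNMT3BKOshZB rows and 21.9 FPKM in wild type, and at 4.77 FPKM in shZBTB24 cells and 17.5 FPKM in shNT cells (q of 0.00493). CDH1 was at 23.2 FPKM in shZBTB24 cells and 46.3 FPKM in shNT cells (q of 0.00493), beside the difference given above. SLC7A11, the cystine importer, was at 11.7 FPKM in the DNMT3BKOshZB rows and 25.1 FPKM in wild type, and at 2.81 FPKM in shZBTB24 cells and 6.25 FPKM in shNT cells (q of 0.00493). PCDH7, SYT1, KLF7, SPATS2, ABHD10 and UNC13A were also lower in both with that q, which is the lowest of the shared loci. Other genes were higher after the knockdown. HAS3 was at 0.382 FPKM in the DNMT3BKOshZB rows and 9.41 FPKM in wild type, but at 39.5 FPKM in shZBTB24 cells and 12.1 FPKM in shNT cells (q of 0.00493). CYP24A1 was at 9.03 FPKM in shZBTB24 cells and 3.80 FPKM in shNT cells (q of 0.00493). MCM4 was at 19.5 FPKM in shZBTB24 cells and 6.46 FPKM in shNT cells (q of 0.00493). CYB5B was at 50.7 FPKM in shZBTB24 cells and 28.8 FPKM in shNT cells (q of 0.0437), opposite to its value in the knockout table. CDX2, KLK10, RNF43 and SESN1 were likewise lower in the DNMT3BKOshZB rows and higher in shZBTB24 cells with a q under 0.05.

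**Figure D5:**
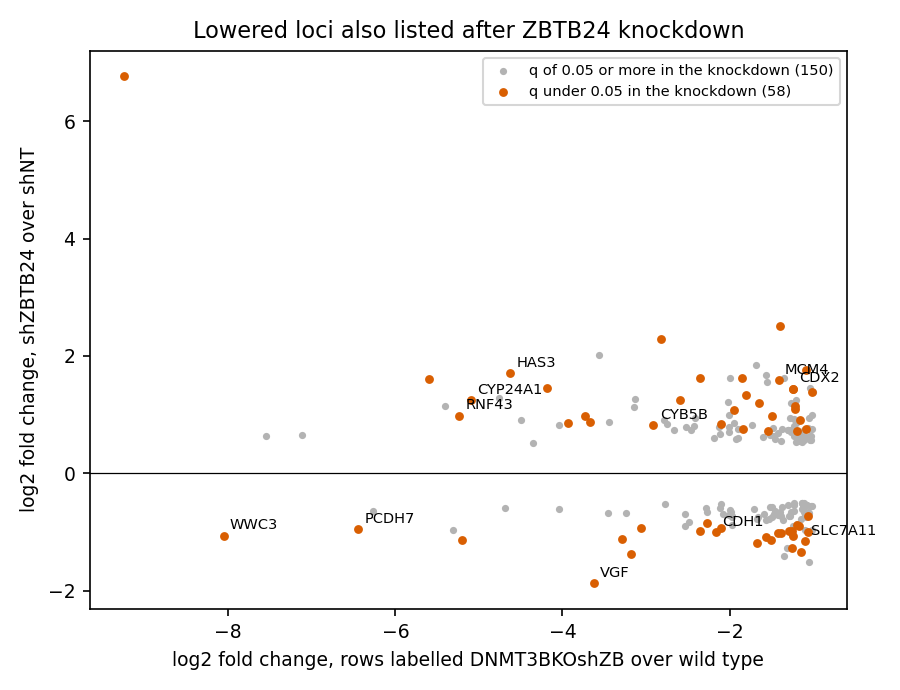
Log2 fold change of the 208 shared loci in the rows labelled DNMT3BKOshZB over wild type (x axis) and in shZBTB24 over shNT cells (y axis), with the 58 loci at a q under 0.05 in the authors' deposited shZBTB24 table in orange. Points lie on both sides of zero, 112 above and 96 below. None lies near zero because each table lists only loci past a fold, and that fold is smaller in the shZBTB24 table.

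In cells expressing FLAG-ZBTB24, 233 of the 1112 lowered loci (21.0%, Wilson 95% interval 18.7 to 23.4%) were listed against the tag alone, 13.3% of that table, with 109 higher and 124 lower. The whole FLAG-ZBTB24 table was 47.3% higher and 52.7% lower. The filters of this table and of the shZBTB24 table differed, as given below, so their listed shares were not compared. By the authors' deposited table only MT2A had a q under 0.05 among them (0 higher, 1 lower), against 0.228% higher and 0.342% lower of that table. MT2A, a metallothionein that binds zinc and copper, was at 145 FPKM in FLAG-ZBTB24 cells and 618 FPKM in cells with the tag alone. It was at 862 FPKM in the DNMT3BKOshZB rows and 1737 FPKM in wild type, and at 297 FPKM in shZBTB24 cells and 114 FPKM in shNT cells. MT2A was therefore lower in FLAG-ZBTB24 cells and in the DNMT3BKOshZB rows, and higher in shZBTB24 cells. Its log2 fold change in the DNMT3BKOshZB rows was -1.01, at the 2-fold edge of the list. Its level also differed between the control groups, with 1737 FPKM in wild type, 618 FPKM with the tag alone and 114 FPKM in shNT cells. FLAG lines were single-cell clones, and differences between clones and the effect of the transgene cannot be told apart.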

How the data were processed

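RNA was sequenced from 12 libraries and ChIP-seq from 14, per the labels. Reads were processed by the authors with tools among MACS2, HISAT2, StringTie and Cufflinks on hg19, per the submitters' processing notes, which give no versions. The deposited expression tables hold 1 FPKM value per group, the log2 fold change over wild type or the control, and a p-value and q-value, per the file headers. Only loci past a fold are listed in these tables, so no rescaling of all genes was possible. The filters differed between the tables. The knockout table ends at 2-fold, while shared loci reached -0.509 (CARD10) in the shZBTB24 table and -0.501 (RBP7) in the FLAG-ZBTB24 table. The authors' unadjusted p of the shared loci was at most 0.0548 (ZMYND15) in the shZBTB24 table. In the FLAG-ZBTB24 table it ran up to 0.818 (EBLN2). The merged peak lists the authors deposited give 1 score per peak, of a kind that no source used here states. Another 9448 rows of the knockout table were blank and were left out.

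Samples were grouped by their titles. Tables were joined by gene symbol; loci with several symbols were counted once, and 1 symbol that had turned into a date was left as it was. CSAG3 was the 1 symbol under both labels, for 2 separate loci. Locus positions came from the deposited hg19 annotation, 1-based. A promoter peak had its midpoint within 1000 bp of a transcript start, and a body peak had its midpoint inside a transcript. The size rule was a log2 fold change of -2 or lower. Shares have Wilson 95% intervals from Python 3.11.15 with scipy 1.17.1, and the computation was tested on simulated data; motif letters were searched in RefSeq promoters of GRCh38.p14. Genes were named by fixed rules. Among loci with a single symbol, these took the 15 largest folds with at least 10 FPKM in wild type. They also took the 10 highest wild-type levels and the 10 highest promoter peaks among single-symbol loci. Among all lowered loci, they took all loci with the lowest q and the methylation genes. They also took the 4 highest of each list with 5 or more lowered loci, and loci past q in the other tables. Other genes were named after their values were seen. The members and the gene lists were chosen with earlier results of these data known. The alternatives changed the level filter, the pseudocount, the fold, the peak window and score, the symbol rule and the thresholds of the other tables.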

Additional observations from a re-analysis of the deposited data

How the results depend on the processing

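Of 69 values recomputed under other settings, 54 stayed within the limits set for them and 15 moved; the cause was not tested. The share of lowered loci past 4-fold, 26.6% as deposited, was 21.2% among loci with at least 5 FPKM in wild type, 22.8% with 0.1 FPKM and 10.2% with 1 FPKM added to both values, and 10.9% at 8-fold. The share with a ZBTB24 promoter peak, 6.92%, was 5.31% within 500 bp and 3.597% with only peaks at or above the median score. The share with a DNMT3B body peak, 33.3%, was 44.2% with at least 5 FPKM in wild type and 23.7% with only such peaks. The share listed in the shZBTB24 table, 18.7%, was 5.22% by q under 0.05 there, and the share in the FLAG-ZBTB24 table, 21.0%, was 18.7% with at least 5 FPKM in wild type and 2.61% by p under 0.05 there. With 1 FPKM added, 22 of 37 ZNF, 13 of 22 LINC, 19 of 39 antisense and 3 of 5 F-box, KLHL and TRIM loci were still 2-fold lower. No paired analysis was possible because the tables hold 1 pooled value per group: the shNT and shZBTB24 libraries share replicate numbers in their titles, but their values are not given per library, and the knockout table has no numbered replicates. For the same reason no replicate could be left out, and low FPKM values carry an unknown counting error.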
